A study of Homo sapiens with 4 samples.

Results

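The genes that build, load, release and position cohesin were examined for H3K27ac-associated loops in M14, a human melanoma cell line. The set held 10 genes: STAG1, SMC3 and RAD21 (subunits of the ring), NIPBL and MAU2 (the loader), WAPL, PDS5A and PDS5B (release and its regulation), ESCO1 (an acetyltransferase of SMC3) and CTCF (the DNA-binding factor at which cohesin stops). A loop belonged to a gene when a GENCODE transcript start of that gene on hg19 lay in either of its 5 kb anchors. By this rule the set held 19 loops of the WT list (27289 in total) and 22 of the STAG2-KD list (25621 in total), which made 34 distinct loops over both lists.

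M14 cells of both groups carried the same doxycycline-inducible short hairpin RNA (shRNA) against STAG2. WT cells were grown without doxycycline, and STAG2-KD cells were grown with doxycycline for 5 days. HiChIP ligates chromatin segments that are near each other in space and pulls them down with an antibody. The antibody used bound acetylated lysine 27 of histone H3 (H3K27ac), which is found at active enhancers and promoters. The labels list 4 samples, 2 per group, and the lists analysed, 1 for WT and 1 for STAG2-KD, are both filed under the first replicate. Whether a list also draws on the second replicate is not stated. The model is 1 cell line with 1 shRNA construct, and doxycycline itself was present only in the STAG2-KD group, so its effect and that of the knockdown cannot be told apart. The lists give positions only. The read depth behind a loop is unknown. Differences between WT and STAG2-KD could not be set against replicate spread, and p-values were not computed. A loop missing from a list may also be one that fell just short of the authors' calling limit. Because cells were pooled, a contact made in fewer cells and one made less often per cell cannot be told apart.

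Cohesin is a ring of SMC1A, SMC3 and RAD21 to which either STAG1 or STAG2 binds, and the STAG paralogs give rise to alternative forms of the complex. The ring is loaded by NIPBL with MAU2, extrudes a loop of chromatin, halts at bound CTCF and is taken off by WAPL with PDS5 proteins, while acetylation of SMC3 by ESCO1 shields it from release. STAG2 sits on chromosome X and is inactivated in several cancers, melanoma among them, and cells that lose it depend on STAG1. Neither list held a loop on chromosome X, so STAG2 and SMC1A could not be described.

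As a check of the labelled cell type, loops at starts of melanocyte genes were counted. Of 7 melanocyte genes, 6 had a WT loop and 5 a STAG2-KD loop, beside 39.1% and 36.8% of 19229 protein-coding autosomal genes. They had 26 and 16 loops in all. MITF had 7 and 2, MLANA had 3 and 5, SOX10 had 4 in each list, and TYR had 0 in both. Of the 7, fewer loops in STAG2-KD were held by 4 (19.4% of all genes), more by 1 (15.3% of all genes) and equal numbers by 1. Of 5 matched markers of blood, epithelium and fibroblasts, 1 had a WT loop and 2 had a STAG2-KD loop, with 1 and 4 loops in all. PTPRC, EPCAM and COL1A1 had 0, CD3E had 1 and 3, and KRT8 had 0 and 1. Whether the fewer melanocyte loops in STAG2-KD bear on the loops of the cohesin genes was not tested.

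STAG1 held most of the loops of the set. It had 12 WT and 13 STAG2-KD loops, against 7 and 9 for the other genes together. CTCF had 4 and 3, SMC3 had 2 and 1, and NIPBL had 1 and 1. MAU2 had 0 in WT and 3 in STAG2-KD, and PDS5B had 0 and 1. RAD21, WAPL, PDS5A and ESCO1 had none in either list. Counted within 100 kb of a start, whether or not the loop belonged to the gene, STAG1 had 18 WT and 14 STAG2-KD loops, CTCF had 12 and 8, MAU2 had 6 and 10, and SMC3 had 6 and 7. The plot of loops per gene and list shows the same counts split by sharing, where a shared loop occupied the same pair of anchors in both lists.

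**Figure D1:**
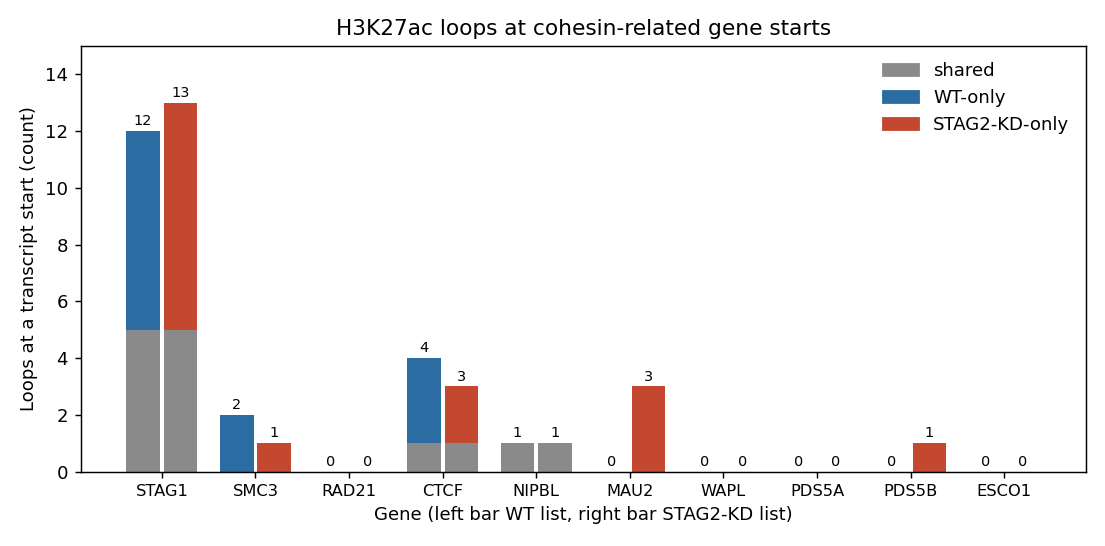
Number of loops with a transcript start of each gene in an anchor, in the WT list (left bar) and the STAG2-KD list (right bar). Grey marks shared loops, blue WT-only loops and red STAG2-KD-only loops. STAG1 stands at 12 and 13, and no other gene exceeds 4.

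Among 19229 protein-coding genes on autosomes, 39.1% had at least 1 WT loop and 36.8% at least 1 STAG2-KD loop, beside 4 and 6 of the 10 cohesin genes. No loop in either list was found for 55.5% of all genes and for 4 of these 10. More loops in STAG2-KD than in WT were held by 15.3% of all genes, and by STAG1, MAU2 and PDS5B here. Fewer were held by 19.4% of all genes, and by SMC3 and CTCF. STAG2-KD loops together with 0 WT loops were found for 5.49% of all genes and for MAU2 and PDS5B. The WT share was near the background, and in a set of 10 genes each gene moves a share by 10 percentage points.

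The high count of STAG1 is seen in both lists. Only 0.926% of genes had 12 or more WT loops and 0.712% had 13 or more STAG2-KD loops. Among genes with a loop, the median was 2 loops and the upper quartile 4 in both lists, and the highest counts were 44 in WT and 42 in STAG2-KD. Counted by anchor, 253 of 22955 WT anchors (1.10%) held as many loops as the STAG1 start anchor, and 149 of 22070 STAG2-KD anchors (0.675%) did.

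**Figure D2:**
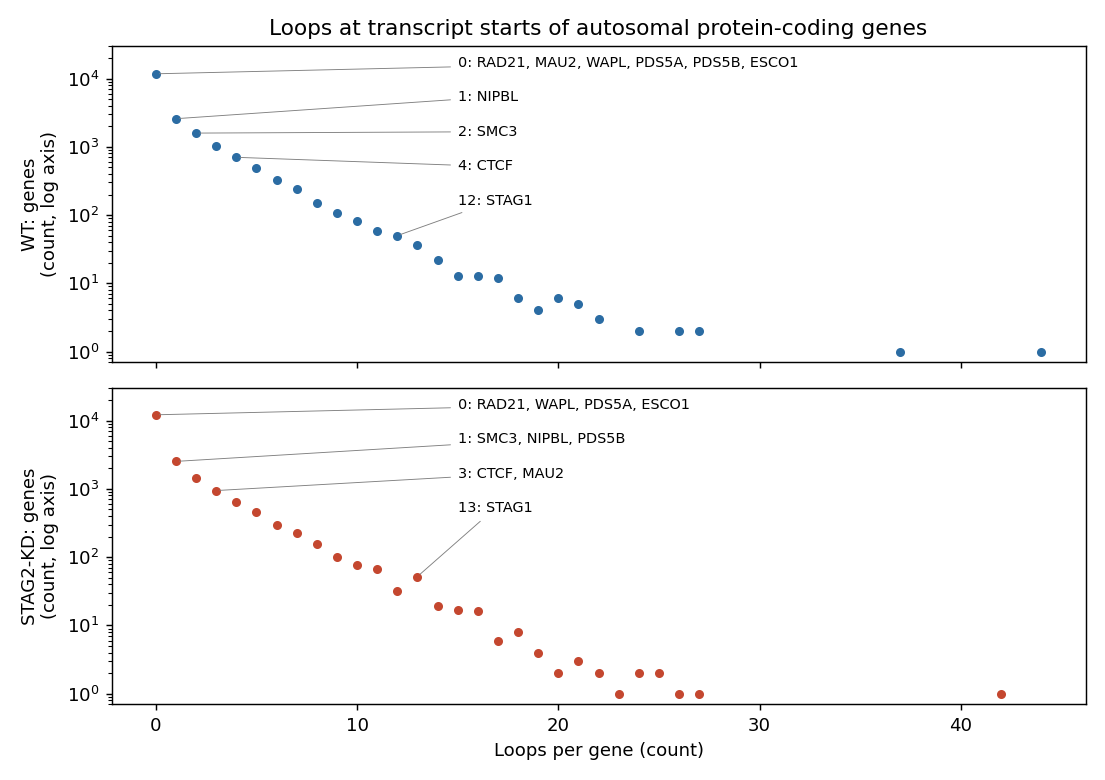
Number of autosomal protein-coding genes (log axis) at each number of loops per gene, in WT (top) and STAG2-KD (bottom); loop numbers with no gene are not drawn. Labels give the loop number of each gene of the set, and STAG1 lies in the right tail of both panels at 12 and 13 loops.

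STAG1 encodes the STAG paralog that remains when STAG2 is lost. The gene (ENSG00000118007) lies at chr3:136055078-136471245 on the minus strand, with 8 annotated starts in 4 bins of 5 kb. All its loops left from 1 of these bins, chr3:136470001-136475000, which holds the most upstream start and no start of another protein-coding gene. Its promoter is shown because all 20 distinct STAG1 loops share this anchor. The sequence is from RefSeq (250 bases before to 50 after the start) and was placed on hg19 by an exact match, on the minus strand at chr3:136471171-136471470, with each GC box (GGGCGG on either strand) in capitals.
STAG1 promoter: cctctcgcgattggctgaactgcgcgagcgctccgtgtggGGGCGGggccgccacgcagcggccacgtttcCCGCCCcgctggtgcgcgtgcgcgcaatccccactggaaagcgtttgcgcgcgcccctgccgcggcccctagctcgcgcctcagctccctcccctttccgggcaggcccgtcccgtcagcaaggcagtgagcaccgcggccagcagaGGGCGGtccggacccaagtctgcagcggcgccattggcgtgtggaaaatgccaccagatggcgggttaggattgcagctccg
This promoter is 71.3% G or C and holds 37 CpG dinucleotides and 3 GC boxes. Over 35116 RefSeq promoters of the same length, the median was 58.7% (quartiles 47 and 68) with 14 CpG (quartiles 4 and 28), and 45.0% held a GC box.

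The STAG1 anchor was joined to 20 partners. WT and STAG2-KD had 5 of them in common, while 7 were found in WT alone and 8 in STAG2-KD alone. Shared loops were 41.7% of its WT loops (95% exact Clopper-Pearson interval 15.2 to 72.3) and 38.5% of its STAG2-KD loops (13.9 to 68.4). Over the whole lists the shared fraction was 38% for WT and 40.5% for STAG2-KD, and both values lie inside these intervals. The STAG1 loops share an anchor and are not separate observations, so the intervals are no test against the background. All such intervals cover counting error only.

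On the upstream side, towards NCK1 and IL20RB, the contacts had lower median distances than downstream, and 4 were shared. WT had 7 upstream loops of 35 to 260 kb (median 165 kb, measured between anchor midpoints) and STAG2-KD had 6 of 50 to 260 kb (median 145 kb). Both medians were above those of the whole lists, 90 and 85 kb. The nearest shared partner lay 50 kb away at chr3:136520001-136525000, outside protein-coding genes, and took part in 5 WT and 2 STAG2-KD loops in all. The next, at 110 kb, held the starts of NCK1, an adaptor protein of receptor tyrosine kinase signalling, and of its divergent transcript NCK1-DT. The other two shared partners were at 245 kb in an intron of IL20RB, a subunit of receptors for the IL-20 cytokine family, and at 260 kb in chr3:136730001-136735000, with no protein-coding gene.

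The remaining upstream loops differed between the lists. WT-only partners lay at 35 kb (no protein-coding gene), 165 kb (an intron of NCK1) and 190 kb (an internal NCK1 start). STAG2-KD-only partners lay at 85 kb (an intron of SLC35G2 with a start of the long non-coding RNA ENSG00000273486) and at 180 kb (an intron of NCK1). The 180 kb loop of STAG2-KD lay 2 bins from the nearest WT loop, the one at 190 kb, so this pair of list-specific loops is 10 kb apart.

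On the downstream side, across the STAG1 body and beyond its end, only 1 loop was shared. It joined the start to an exon bin (a bin that overlaps an exon) of STAG1 itself at 210 kb, chr3:136260001-136265000. WT had 5 downstream loops of 160 to 485 kb with a median of 365 kb, and STAG2-KD had 7 of 20 to 695 kb with a median of 655 kb. WT-only partners were a STAG1 exon bin at 160 kb, a STAG1 intron at 365 kb and introns of PCCB, which encodes a subunit of the mitochondrial propionyl-CoA carboxylase, at 450 and 485 kb. STAG2-KD-only partners inside the gene were introns at 20 and 340 kb.

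The 4 longest STAG1 loops were STAG2-KD-only and ended side by side. Their partners lay at 655, 670, 685 and 695 kb, in bins starting at chr3 positions 135815001, 135800001, 135785001 and 135775001. All of them fell in PPP2R3A, which encodes a regulatory subunit of protein phosphatase 2A, at exon bins for 670 and 685 kb and introns for the others. None held an annotated transcript start. Each of the 4 partner bins had this single loop in STAG2-KD and none in WT.

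**Figure D3:**
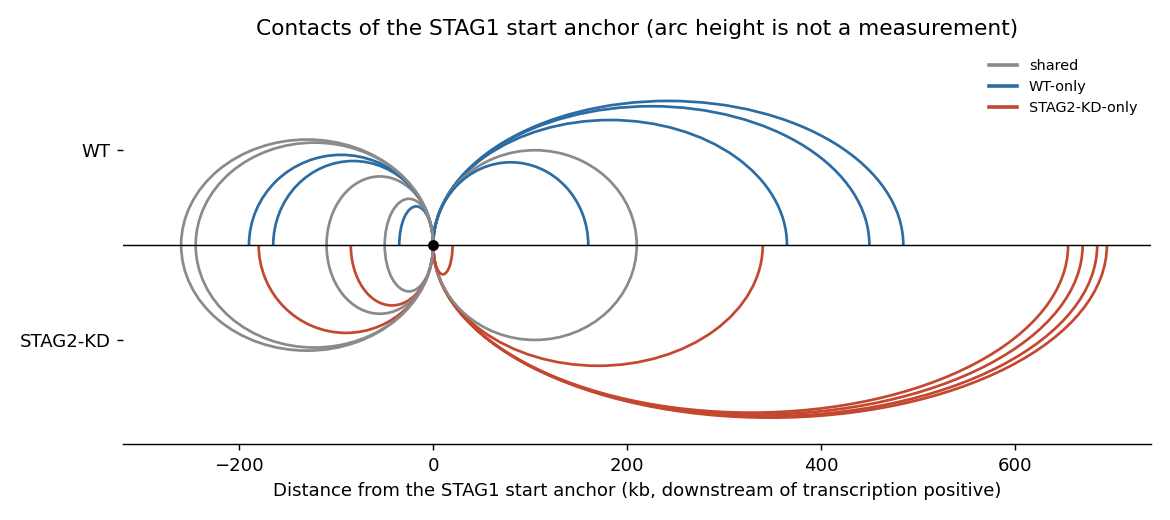
Loops of the STAG1 start anchor drawn as arcs to their partners by distance (kb, downstream of transcription to the right), with WT above and STAG2-KD below the line; arc height carries no measurement. Grey arcs are shared, blue WT-only and red STAG2-KD-only, and the bundle of 4 red arcs at 655 to 695 kb has no counterpart above the line.

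Within these 45 kb of PPP2R3A, chr3:135775001-135820000, no WT loop of any gene had an anchor, and the 4 STAG2-KD loops that had one were those of STAG1. The nearest other anchor in the WT list was 15 kb beyond the span, at chr3:135755001-135760000, and in the STAG2-KD list it was 45 kb from the span, at chr3:135865001-135870000. The nearest WT loop from STAG1 lay 34 to 42 bins of 5 kb from these loops. The longest WT loop of STAG1 thus reached 485 kb and the longest STAG2-KD loop 695 kb. Loops at least as long made up 4.06% of the WT list and 1.99% of the STAG2-KD list.

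Loops of 500 kb or more were 3.73% of the WT list and 4.63% of the STAG2-KD list. STAG1 had 0 of 12 in WT, which allows a share of up to 26.5% by the exact interval, and 4 of 13 in STAG2-KD, or 30.8% (9.09 to 61.4). These intervals overlap. A STAG2-KD loop of this length with no such WT loop was held by 1.47% of genes, and the opposite by 0.884%. A count of 4 or more in STAG2-KD with none in WT was found for 4 genes (0.0208%), namely STAG1, the linker and core histone genes H1-4 and H2BC5, and the homeobox gene IRX5. H1-4 and H2BC5 both lie on chromosome 6, and a loop counts for every gene with a start in its anchor. Whether they held the same loops was not checked, so the 4 genes may not be separate cases. The opposite, 4 or more WT loops of this length with none in STAG2-KD, was found for MYSM1, TNS3 and XXYLT1. The limit of 4 was STAG1's own count, and the long STAG1 contacts had been picked out beforehand. The share of 0.0208% therefore describes STAG1 and is no test of it. The 4 STAG1 loops also share 1 anchor and end within 45 kb, so they are not separate observations. If the limit was set at 300 kb, STAG1 had 3 WT and 5 STAG2-KD loops.

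A core of the CTCF motif was searched in all anchors, because CTCF marks the ends of many cohesin loops. The core was CCA, any pair of bases, AGG, any base and GGC, on either strand, and a looser form let the third base of AGG vary. The core was found in 2 of 40 distinct anchors of the set, or 5% (0.611 to 16.9), beside 6.72% of all 30601 anchors. The looser form was found in 8 of 40, or 20% (9.05 to 35.6), beside 17.8% of all anchors. Both shares were within counting error of the background. The sites at STAG1 and CTCF are shown because anchors of these genes held the core. Looser sites also lay in the start anchors of SMC3 and MAU2 and in the partner of NIPBL. Each line gives 30 bases of hg19 read on the named strand, with the core in capitals.
STAG1 partner at 260 kb, chr3:136730719-136730748, minus strand: accaccccaCCATAAGGGGGCaggaagaga
STAG1 partner at 260 kb, chr3:136732895-136732924, minus strand: cagcactgaCCACAAGGTGGCgccagacgc
STAG1 start anchor, chr3:136471182-136471211, minus strand, looser form: tggaaaatgCCACCAGATGGCgggttagga
STAG1 start anchor, chr3:136471240-136471269, minus strand, looser form: gcaccgcggCCAGCAGAGGGCggtccggac
STAG1 partner at 85 kb, chr3:136556133-136556162, plus strand, looser form: gttttccttCCAACAGAAGGCacagaaata
CTCF start anchor, chr16:67595755-67595784, plus strand: ctggggacaCCAAGAGGAGGCcctcccact
CTCF partner at 100 kb, chr16:67696475-67696504, plus strand, looser form: cctggatgaCCAGGAGCAGGCcagttctgg
The shared STAG1 loop of 260 kb therefore had cores at its far end and looser cores at the STAG1 promoter, all on the minus strand. The 4 partner bins in PPP2R3A held neither form. A match is a description of letters and no match says nothing of CTCF binding.

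SMC3 encodes the ring subunit that ESCO1 acetylates (ENSG00000108055, chr10:112327442-112365806, plus strand, 12 starts in 4 bins). Its loops left from chr10:112325001-112330000 and all ran upstream. WT had a loop of 65 kb to the start of DUSP5, a nuclear phosphatase of ERK kinases, and one of 265 kb to the start of SMNDC1, a splicing factor. STAG2-KD had a single loop of 240 kb to chr10:112085001-112090000, which holds no protein-coding gene and had 2 loops in WT and 6 in STAG2-KD. None was shared, and the STAG2-KD loop lay 5 bins from the longer WT loop of the same start bin. WT loops from bins beside the start bin were not compared here. The SMNDC1 bin had 3 WT loops and 0 STAG2-KD loops. The DUSP5 bin had 2 in each list, so this partner was still an anchor in STAG2-KD without a loop to SMC3.

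RAD21 encodes the cleavable subunit that closes the ring (ENSG00000164754, chr8:117858173-117887015, minus strand). None of its 18 starts in 5 bins lay in an anchor. The nearest WT anchor was 20.6 kb away (from start to anchor midpoint), in an intron of UTP23, and belonged to a loop of 65 kb. The nearest STAG2-KD anchor was 725 kb away.

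CTCF encodes the zinc finger protein at which extruding cohesin halts (ENSG00000102974, chr16:67596370-67673080, plus strand, 17 starts in 6 bins). Its loops left from chr16:67595001-67600000 and all ran downstream. The shared loop of 100 kb reached the starts of ENKD1 and of PARD6A, a cell polarity protein. WT-only loops ran 80 kb to the start of CARMIL2, an actin regulator, 300 kb to an exon bin of NUTF2, a nuclear import factor for Ran, and 370 kb to the starts of CTRL, ENSG00000261884 and PSMB10, an immunoproteasome subunit. STAG2-KD-only loops ran 75 kb to an exon bin of CTCF itself and 245 kb to the starts of RANBP10 and TSNAXIP1. The loops of 75 and 80 kb ended in adjacent bins. The longest CTCF loop of WT spanned 370 kb, a length reached by 7.66% of WT loops. That of STAG2-KD spanned 245 kb, a length reached by 18.1% of its list.

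The CTCF partners at 300 and 370 kb were anchors of other loops in STAG2-KD, with 2 loops each, against 3 and 2 in WT. The RANBP10 and TSNAXIP1 bin had 0 WT and 3 STAG2-KD loops. A further 2 loops in each list spanned all CTCF starts, with their anchors outside them.

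NIPBL encodes the loading subunit (ENSG00000164190, chr5:36876871-37066515, plus strand, 9 starts in 6 bins). It had 1 loop, shared by both lists, of 65 kb from chr5:36875001-36880000 to an intron of NIPBL at chr5:36940001-36945000. No other loop was found within 100 kb of its starts in either list.

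MAU2 encodes the partner of NIPBL (ENSG00000129933, chr19:19431638-19469563, plus strand, 16 starts in 7 bins). It had 0 WT loops and 3 STAG2-KD loops, all from chr19:19430001-19435000, a bin that also holds a start of the neighbouring SUGP1. Loops of this bin can therefore belong to either gene. They ran 120 kb upstream to the start of NR2C2AP, 130 kb upstream to a bin with the starts of BORCS8, MEF2B and RFXANK, and 65 kb downstream to the start of GATAD2A, a subunit of the NuRD chromatin remodelling complex. The GATAD2A bin had 3 loops in WT and 6 in STAG2-KD, and the bin of BORCS8 had 1 and 2. In WT the nearest anchor was 11.5 kb from the closest of the 16 MAU2 starts, a distance not measured from the start anchor. The bin chr19:19475001-19480000, 40 kb from the start anchor (measured edge to edge, not between midpoints), had 4 WT and 2 STAG2-KD loops, 2 of them shared.

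PDS5B encodes a regulator that binds the ring and acts in both its release and its protection (ENSG00000083642, chr13:33160589-33352157, plus strand, 9 starts in 4 bins). It had 0 WT loops, with the nearest WT anchor 48.1 kb away, and 1 STAG2-KD loop of 955 kb. This loop was the longest of the set and joined chr13:33160001-33165000 to chr13:34115001-34120000, which holds no protein-coding gene. Loops at least as long were 0.878% of the STAG2-KD list. The far bin had 6 loops in each list, 4 of them shared, and its longest WT loop was 355 kb.

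The promoters of MAU2 and PDS5B are shown because their bins had loops in STAG2-KD alone. They are RefSeq sequences of 300 bases placed by exact match on the plus strand of hg19, at chr19:19431388-19431687 and chr13:33160339-33160638. Capitals mark GC boxes and a core of the motif of YY1, a factor bound at promoters in contact with enhancers (AANATGGC on either strand, chosen after the sequences were read).
MAU2 promoter: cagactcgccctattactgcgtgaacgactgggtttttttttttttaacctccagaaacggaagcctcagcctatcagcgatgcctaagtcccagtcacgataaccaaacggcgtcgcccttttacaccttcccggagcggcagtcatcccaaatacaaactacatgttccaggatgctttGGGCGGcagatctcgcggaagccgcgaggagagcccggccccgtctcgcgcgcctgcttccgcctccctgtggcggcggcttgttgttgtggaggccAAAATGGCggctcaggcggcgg
PDS5B promoter: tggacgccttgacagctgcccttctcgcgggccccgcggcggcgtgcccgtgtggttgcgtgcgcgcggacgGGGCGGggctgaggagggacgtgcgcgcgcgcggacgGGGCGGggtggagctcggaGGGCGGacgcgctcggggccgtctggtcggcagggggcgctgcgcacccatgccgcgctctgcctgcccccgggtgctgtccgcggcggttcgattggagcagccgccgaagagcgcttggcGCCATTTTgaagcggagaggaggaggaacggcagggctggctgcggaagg
MAU2 held 1 GC box and 1 YY1 core, and PDS5B held 3 GC boxes and 1 YY1 core. Promoters of 8 genes of the set were matched, all but those of RAD21 and ESCO1. The YY1 core was found in those of SMC3, CTCF, MAU2 and PDS5B, and in 6.58% of all promoters of this length. Because the core was chosen after these sequences were read, the comparison is no test. The GC content of the 8 ranged from 56% in SMC3 to 76.3% in WAPL.

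WAPL (ENSG00000062650, chr10:88195013-88281549) releases cohesin from chromatin, and PDS5A (ENSG00000121892, chr4:39824483-39979576) assists it. Both had no loop, and the nearest anchors were 126 kb and 208 kb from their starts, in the same bins in both lists. The bin nearest to PDS5A held a start of SMIM14. ESCO1 (ENSG00000141446, chr18:19109245-19180845) likewise had none, and its nearest anchor was 81.7 kb away in an exon bin of ABHD3 in both lists. A gene without a loop can still be expressed and acetylated at H3K27, since only pairs of bins past the authors' limit were listed.

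**Figure D4:**
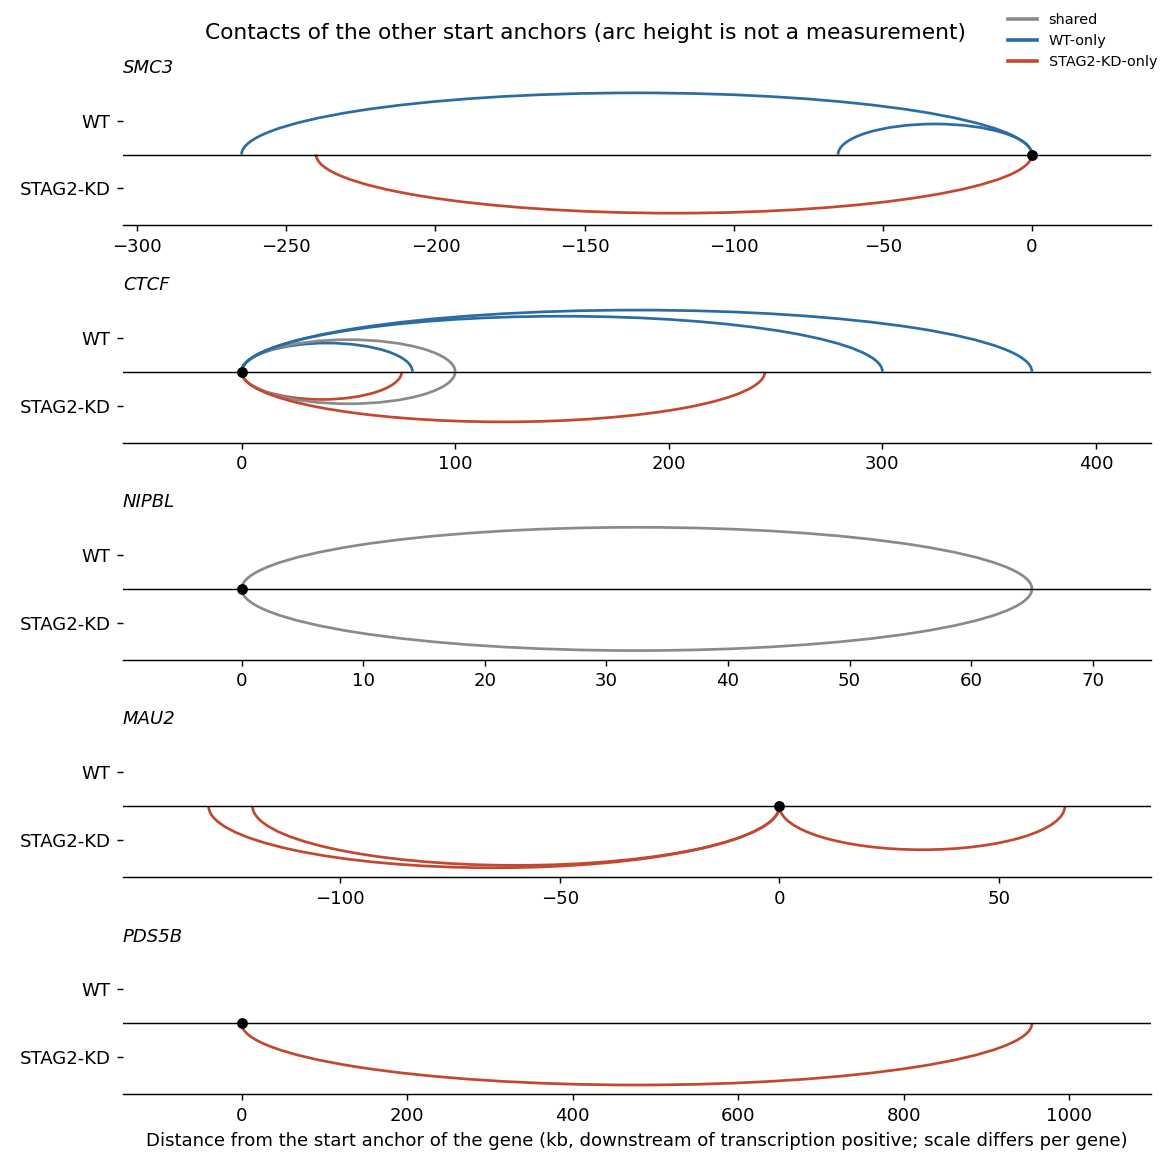
Loops of the start anchors of SMC3, CTCF, NIPBL, MAU2 and PDS5B as arcs to their partners (kb, downstream of transcription to the right, a separate scale for each gene), WT above and STAG2-KD below the line; arc height carries no measurement. SMC3 loops all point upstream, CTCF loops all point downstream, NIPBL has 1 shared loop, and MAU2 and PDS5B have arcs below the line only.

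The loops of the set, pooled, had medians above those of the lists. Their median distance in WT was 190 kb (n = 19, quartiles 80 and 300), and in STAG2-KD it was 195 kb (n = 22, quartiles 82.5 and 419), beside 90 and 85 kb for all loops and also for loops with any protein-coding start. Without STAG1 the medians were 100 kb (n = 7) and 120 kb (n = 9). Loops of a gene share an anchor and are not replicates, so no test was made. By class, the medians of the pooled set were 110 kb for 7 shared, 227.5 kb for 12 WT-only and 240 kb for 15 STAG2-KD-only loops. This order did not hold at STAG1, where they were 210 kb for 5 shared, 190 kb for 7 WT-only and 497.5 kb for 8 STAG2-KD-only loops. For the other genes they were 82.5 kb for 2, 265 kb for 5 and 130 kb for 7. All 5 loops of 500 kb or more were STAG2-KD-only, 4 at STAG1 and 1 at PDS5B.

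**Figure D5:**
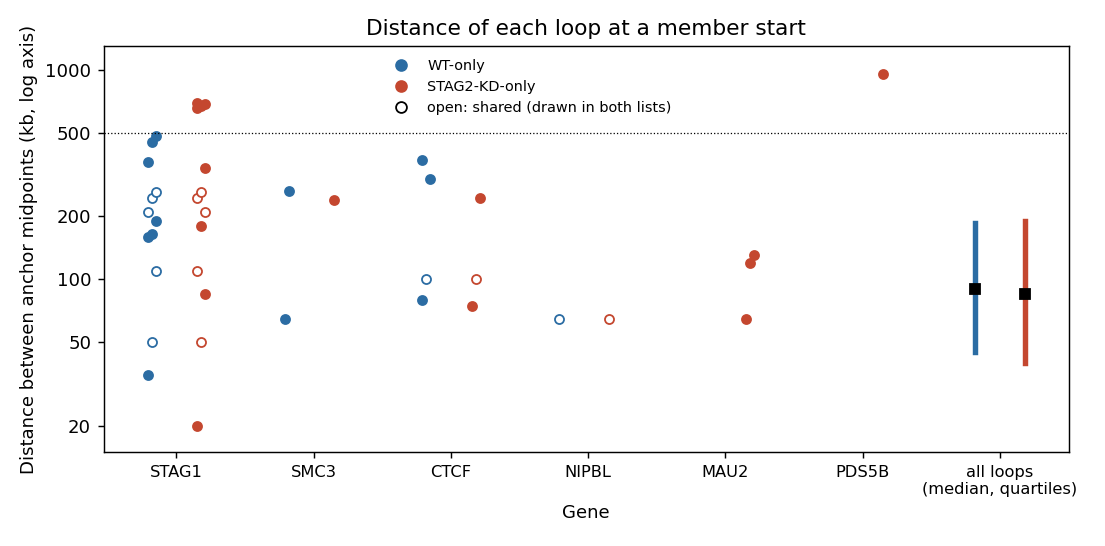
Distance between anchor midpoints (kb, log axis) of each loop of the 6 genes that had one, WT in blue and STAG2-KD in red; filled points are list-specific and open points are shared. The dotted line marks 500 kb, the bars at the right give the quartiles of all loops and the squares their medians of 90 and 85 kb, and only STAG1 and PDS5B points in STAG2-KD lie above the line.

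Sharing over the set was 36.8% in WT (16.3 to 61.6) and 31.8% in STAG2-KD (13.9 to 54.9), intervals that hold the values of the whole lists. Loops of a gene share an anchor, so these intervals are no test against the whole lists. Of the 12 WT-only loops, 2 had a STAG2-KD loop from the same start to a bin at most 2 bins away. Of the 15 STAG2-KD-only loops, 2 had a WT loop from the same start that near. Loops from bins beside the start bin are left out of both counts. With 1 bin allowed at each anchor, which takes them in, sharing in STAG2-KD was 40.9% over the set and 38.5% at STAG1. With 2 bins it was 45.5% over the set, and the further loops were not traced to a gene. The partner bin of 3 WT-only loops was an anchor of other loops in STAG2-KD, and that of 6 STAG2-KD-only loops was an anchor in WT. At STAG1 these counts were 0 of 7 and 2 of 8.

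Promoter partners were counted next. An annotated transcript start lay in the partner bin of 7 of 19 WT loops (36.8%, 16.3 to 61.6) and 7 of 22 STAG2-KD loops (31.8%, 13.9 to 54.9). For all anchors with a protein-coding start, counted once per loop, the shares were 58.0% of 20400 in WT and 57.2% of 19230 in STAG2-KD. The set differed within itself. STAG1 loops had a start at the partner in 2 of 12 in WT (16.7%) and 2 of 13 in STAG2-KD (15.4%), whereas the other genes had one in 5 of 7 (71.4%) and 5 of 9 (55.6%). As the loops of STAG1 share 1 anchor, the intervals of the pooled shares are no test against the background. Counting starts of protein-coding transcripts only gave 21.1% and 22.7%, and counting starts within 5 kb of the partner bin gave 52.6% and 63.6%. No background is given under either definition, so these values cannot be set against 58.0% and 57.2%. Of the 20 STAG1 partner bins, 2 held a start of a protein-coding gene, NCK1 in both cases.

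Genes most like a member in their partner bins, both lists pooled, were neighbours. For STAG1, with 20 partner bins, NCK1 shared 3 of its own 4 (Jaccard index 0.143). For CTCF, with 6 partner bins, CENPT and THAP11 each shared 4 of their 8 (0.4) and PSKH1 shared 2 of 7 (0.182). SMC3 and MAU2, with 3 partner bins each, had no gene with 2 or more in common.

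Other genes of chromosome structure and cohesion gave a mixed picture. Of 30 autosomal genes, 19 had a WT loop and 16 a STAG2-KD loop, beside 39.1% and 36.8% of all genes. More loops in STAG2-KD were held by 4 (15.3% of all genes) and fewer by 8 (19.4% of all genes), while 7 had equal numbers and 11 had none. Summed over these genes there were 61 WT and 49 STAG2-KD loops, 21 of them shared. The counts per complex are descriptions, and nothing particular to a complex is read from them. Of the condensin genes, which compact mitotic chromosomes, 2 of 8 had more and 3 had fewer. SMC4 had 3 WT and 8 STAG2-KD loops, the longest at 365 and 565 kb, and NCAPG had 6 and 0. Of 7 autosomal genes of cohesion establishment and release, 2 had more and 3 fewer, among them PTTG1 (securin) with 2 and 4 and SGO1 (shugoshin, which guards centromeric cohesin) with 3 and 1. Of 6 genes of the SMC5/6 repair complex, 2 had fewer and none more, NSMCE2 with 6 and 3. Of 5 factors linked to loops, 3 had equal numbers in both lists and 2 had none, with 3 in each list at YY1. Of 4 meiotic cohesin genes, STAG3 alone had a loop, a shared one of 20 kb.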

How the data were processed

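H3K27ac HiChIP libraries of M14 cells were grouped by the titles of the samples as WT and STAG2-KD, and 1 loop list per group was analysed. The authors cut chromatin with MboI, aligned reads to hg19 with HiC-Pro (named in the submitters' processing notes as well), called peaks with hichip-peaks and loops with FitHiChIP. For differential loops, an upper limit on the false discovery rate and a filter on supporting reads per replicate are described. Whether these were applied to the deposited lists, and whether a list merges replicates, is not stated. Versions are not given in the sources used here. The deposited lists have 3 columns (chromosome, start of the left anchor, end of the right anchor) and hold no count, score or q-value.

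Carriage returns in the STAG2-KD list were removed. Positions were counted from 1, anchors were taken as 5 kb, and 1 line off the 5 kb grid, on chromosome 14, was kept. Distance was taken between anchor midpoints, and a loop was shared when both its bins matched those of a loop in the other list. Transcript starts came from GENCODE release 44 lifted to GRCh37, sequence from GRCh37 and promoters from RefSeq (GRCh38.p14, placed on GRCh37 by exact match). Shares were given with exact Clopper-Pearson intervals at 95%. Python 3.11.15, numpy 2.4.6, scipy 1.17.1 and matplotlib 3.10.9 were used, and the matching functions were tested on simulated lists.

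Every gene of the set was named with its counts, every STAG1 loop was given, and partners were named by protein-coding starts in the bin or, without one, by the gene body. Similar genes were those with the highest Jaccard index of partner bins, at least 2 in common, for genes with 3 or more partner bins. The genes, lists and rules were chosen with earlier results of these data known. In the pathway and marker lists, 2 genes are not reported here. GC boxes and the YY1 core were added after the sequences were read. Alternatives covered the definition of a start, the sharing tolerance, distance limits, leaving out STAG1, the promoter definition and the CTCF core.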

Additional observations from a re-analysis of the deposited data

How the results depend on the processing

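Over 15 results and 67 alternative values, 62 stayed near the reported value and 5 moved. Near meant within 1.5 times for a count, within the exact 95% interval for a share, and within the order-statistic interval for a median. These intervals are wide, so values among the 62 also shifted: without STAG1 the median distance went from 190 to 100 kb in WT and from 195 to 120 kb in STAG2-KD, and with starts of protein-coding transcripts only the WT promoter share went from 36.8% to 21.1%. Without STAG1 the loops of the set were 7 in WT and 9 in STAG2-KD. With long loops defined as 300 kb or more, STAG1 had 3 in WT, against 0 at 500 kb. With starts within 5 kb of the partner bin counted, 63.6% of STAG2-KD loops had a promoter there, and with the looser CTCF core 20% of anchors held it. Allowing 1 or 2 bins at each anchor gave sharing of 42.1% and 47.4% in WT and 40.9% and 45.5% in STAG2-KD. The counts of STAG1 loops and of those of 500 kb or more in STAG2-KD (4) were the same with protein-coding starts only, with the most 5′ start only, with starts within 5 kb of the anchor and without loops over 1 Mb. Taking the most 5′ start could not change them, because all STAG1 loops left from the bin of that start. No loop of the set exceeded 955 kb, so the limit of 1 Mb could change no value. Such values also count among the 62. No paired analysis was possible because only 1 loop list stood for WT and 1 for STAG2-KD. For the same reason no replicate could be left out. Read depth is unknown, so a list-specific loop cannot be told from one just short of the calling limit.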
